A study of Rattus norvegicus with 6 samples.

Results

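Mitochondrial DNA (mtDNA) encodes 7 subunits of respiratory complex I, named ND1, ND2, ND3, ND4L, ND4, ND5 and ND6, and their transcripts were followed here in the striatum of rats with and without manganese (Mn) exposure. The members were chosen by position alone: among the 35 annotated features of the mitochondrial chromosome, the 13 longer than 200 bases were sorted by start and given the standard mammalian gene order, and the ND genes were taken from it. They are 7 of 32552 genes in the files. The striatum of male Sprague-Dawley rats was collected from 3 controls, given 0.9% NaCl into the peritoneum, and from 3 rats given MnCl2 by the same route at 25 mg/kg, both over 15 days. The labels call the controls 1, 2 and 4 and the Mn-exposed libraries 13, 14 and 17, and values of single libraries stand in this order. Whether each library came from its own animal is not given in the sources used here, nor are age and pooling, so p-values reflect only how these libraries spread, which may be technical. The files list Ensembl IDs without names, so striatal and other cell type markers were not analysed here.

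Complex I is the entry point of the respiratory chain: it takes electrons from NADH, passes them to ubiquinone and pumps protons across the inner mitochondrial membrane. Its mtDNA-encoded subunits form the core of the membrane arm, while the remaining subunits come from nuclear genes. ND1 sits where the arm meets the peripheral part and helps to form the ubiquinone channel, ND2, ND4 and ND5 are the antiporter-like subunits that move protons, and ND3, ND4L and ND6 are smaller membrane proteins between them. Mammalian mtDNA is transcribed as long precursors from both strands, which are cut mostly at the transfer RNAs between the coding genes, and most of the resulting messengers receive a poly(A) tail. ND4L and ND4 are kept together on 1 messenger. Manganese is an essential metal that accumulates in the basal ganglia, to which the striatum belongs, and is toxic there in excess.

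On the mitochondrial chromosome of Rnor_6.0 (1-based), each of the 7 was a single exon, and 6 lay on the plus strand. ND1 (ENSRNOG00000030644) ran from 2740 to 3694, and ND2 (ENSRNOG00000031033) from 3904 to 4942. ND3 (ENSRNOG00000033615) ran from 9451 to 9798, ND4L (ENSRNOG00000031053) from 9870 to 10166 and ND4 (ENSRNOG00000029707) from 10160 to 11537. ND5 (ENSRNOG00000029971) ran from 11736 to 13565. ND6 (ENSRNOG00000029042), from 13543 to 14061, was the only one of the 13 coding genes on the minus strand. ND4L and ND4 shared 7 bases, as an overlapping pair on 1 strand, and ND5 and ND6 shared 23 bases on opposite strands. Lengths ran from 297 bases in ND4L to 1830 in ND5. ND1 (955 bases), ND2 (1039) and ND4 (1378) were each 1 base longer than a whole number of codons and ended directly against the next annotated feature, with a gap of 0 bases. In mammalian mtDNA such genes have an incomplete stop codon that is completed by the poly(A) tail. Together the 7 held 55.8% of the bases of the 13 coding genes.

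Libraries held 21754379 to 32569760 counts. The members took between 10345 (ND4 in Mn-exposed 14) and 418467 (ND2 in control 2) counts each in a library, so counting error was at most 0.983% of a value. All 7 passed the filter on low counts. The library kit named in the labels does not mark strand. Reads from ND6 thus cannot be told apart from those of any opposite-strand transcript across the same bases. The values given below for ND6 are those of its interval, and how much came from each strand is unknown. Libraries were also selected for poly(A), and ND6 is known in human cells as the coding transcript of mtDNA without a stable tail. How reads with several matches were handled is not given in the sources used here, so the counts of genes with near-identical copies of mtDNA in the nuclear genome are uncertain, and this was not tested.

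Within every library the members differed widely in level per base. Levels are given as CPM (counts relative to TMM-scaled library size) per kilobase of gene. ND1, at the ubiquinone channel, stood at 13286, 12374 and 11047 CPM per kilobase in the controls and at 11681, 6875 and 9847 in the Mn-exposed libraries. Its lowest value was that of Mn-exposed 14, and Mn-exposed 13 lay above control 4, so the groups overlapped. ND2, an antiporter-like subunit, stood at 13527, 12667 and 10688 CPM per kilobase in the controls and 11557, 6619 and 9756 in the Mn-exposed libraries, in the same order. The difference between ND1 and ND2 was within the spread of libraries: their ratio per base ran from 0.977 to 1.04 (exact sign-flip permutation p = 0.438, adjusted over 21 pairs 0.438, n = 6).

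The other antiporter-like subunits lay lower. ND5 stood at 5391, 4973 and 4331 CPM per kilobase in the controls and at 4300, 2748 and 4055 in the Mn-exposed libraries. It was the only member whose groups did not overlap in TMM-scaled CPM, with Mn-exposed 13 just below control 4. As a part of all counts its groups did overlap: Mn-exposed 13 (0.792%) and Mn-exposed 17 (0.787%) lay above control 4 (0.757%). ND4 stood at 738, 865 and 428 CPM per kilobase in the controls and 622, 287 and 584 in the Mn-exposed libraries. Here control 2 was highest, and control 4 lay below Mn-exposed 13 and 17.

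Of the small subunits, ND4L was the highest per base. It stood at 6919, 6331 and 4972 CPM per kilobase in the controls and at 5276, 3544 and 5182 in the Mn-exposed libraries, with 2 Mn-exposed libraries above control 4. ND6 stood at 5841, 5258 and 4964 CPM per kilobase in the controls and at 5042, 3042 and 4375 in the Mn-exposed libraries. Only Mn-exposed 13 lay above a control in ND6. ND3, whose loop near the ubiquinone site is known to move when the enzyme switches between its active and resting states, stood at 3204, 2692 and 2876 CPM per kilobase in the controls and 2829, 1701 and 2200 in the Mn-exposed libraries. In ND3 Mn-exposed 13 lay above control 2.

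**Figure D1:**
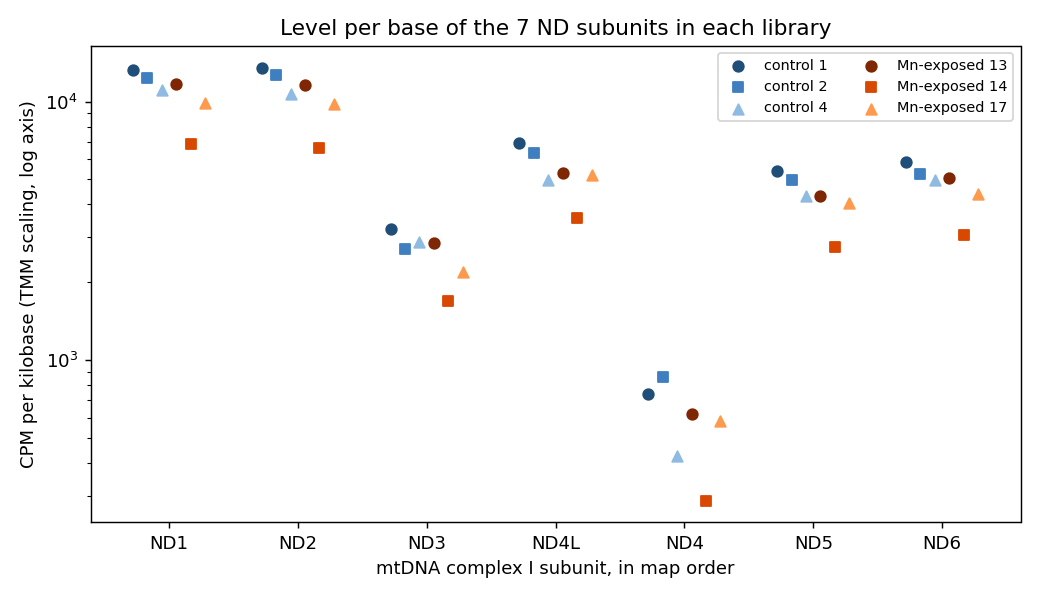
Level per base of the 7 ND subunits in each library, as CPM per kilobase with TMM scaling on a log axis, with the subunits in map order and 1 point per library (3 control, 3 Mn-exposed). ND1 and ND2 are highest, ND4 is lowest in every library, and Mn-exposed 14 is the lowest library for all 7 subunits.

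The order of the members was nearly the same in the 6 libraries. In each of them ND1 and ND2 came first, followed by ND4L, ND6, ND5, ND3 and ND4, and ND2 was above ND1 in control 1 and 2 only. Of the 21 pairs of members, 20 differed per base in 1 direction in all 6 libraries, each with an exact sign-flip permutation p of 0.03125, the smallest that 6 libraries allow, and 0.0328 after Benjamini-Hochberg adjustment over 21 pairs. Some neighbours in the order differed by little: ND4L stood at 1.13 times ND6 (1.00 to 1.20 over libraries), and ND6 at 1.11 times ND5 (1.06 to 1.17). Other steps were wider: ND2 stood at 2.00 times ND4L, ND5 at 1.66 times ND3 and ND3 at 4.58 times ND4. In control 4 ND4L stood at 1.002 times ND6, too near 1 for counts to settle the direction of that pair there. When bases shared with another feature were left out of the lengths, 19 pairs passed. With 5 libraries the smallest possible p is 0.0625, so no pair could pass and none did.

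Among members next to each other on the map, the widest step was between the pair that shares a messenger. ND4L stood per base at 9.52 times ND4, as a geometric mean over the 6 libraries. The ratio was 9.38, 7.32 and 11.6 in the controls and 8.48, 12.4 and 8.87 in the Mn-exposed libraries. The groups overlapped, and the exact permutation p of the difference in log ratio was 0.8 (n = 3 each). ND5, the next member downstream, stood at 7.62 times ND4 (5.75 to 10.1), and ND2 at 19.1 times (14.6 to 25.0). The cause of the low count of ND4 was not tested.

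ND4 was the member that varied most between libraries of a group. Its coefficient of variation in CPM was 33.2% among controls and 36.9% among Mn-exposed libraries. The other members varied by 8.34% (ND6) to 16.4% (ND4L) among controls and by 20.9% (ND4L) to 26.8% (ND2) among Mn-exposed libraries.

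Every member had a lower fitted level in Mn-exposed than in control striatum, and none passed the test. The members' log2 fold changes from edgeR's quasi-likelihood test ran from -0.44 to -0.37, with a median of -0.38, against a median of 0.02 over all 15252 genes tested. A negative sign was found in 7 of 7 members and in 47.4% of all genes tested. The 7 signs are not separate pieces of evidence, since all come from the same libraries and the 6 plus-strand genes share precursors. An adjusted p under 0.05 was reached by 0 of 7 members and by 0% of all genes tested, and an unadjusted p under 0.05 by 0 of 7 members against 7.47% of all genes, and 3.21% of all genes counting lower ones only. DESeq2 called 0 of 7, where it called 0.254% of genes as lower, and limma-voom called 0 of 7 members and 0% of all genes tested. In bulk tissue, fewer cells of a type and less RNA per cell cannot be told apart in such a difference.

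By role, ND1 stood at 0.774 times its control level in the fit (95% interval 0.523 to 1.14), with a log2 fold change of -0.37 (SE 0.24, edgeR adjusted p = 0.703). Of the antiporter-like subunits, ND2 stood at 0.757 times (0.503 to 1.14, edgeR adjusted p = 0.697), ND5 at 0.756 times (0.521 to 1.10, edgeR adjusted p = 0.680) and ND4 at 0.735 times (0.406 to 1.33, edgeR adjusted p = 0.743). ND4 thus had the most negative estimate and the widest interval. The small subunits ND3, ND4L and ND6 stood at 0.767, 0.768 and 0.776 times their control levels, with edgeR adjusted p of 0.676, 0.683 and 0.691. The 95% intervals of these 3 ran from 0.544 to 1.08, from 0.537 to 1.10 and from 0.542 to 1.11, so each included no change and also much lower levels.

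The labels number the libraries of each group 1 to 3, which sets control 1 beside Mn-exposed 13, control 2 beside Mn-exposed 14 and control 4 beside Mn-exposed 17. In CPM, 5 members (ND1, ND2, ND3, ND5 and ND6) were lower in the Mn-exposed library of all 3 pairs, as were 18.3% of all genes tested. ND4L and ND4 were lower in 2 of the 3 pairs and higher in Mn-exposed 17 than in control 4. With the number as a block in edgeR, 0 of 7 members passed an adjusted p of 0.05, and 1, ND3, had an unadjusted p under 0.05, as did 13.9% of all genes tested in that fit.

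**Figure D2:**
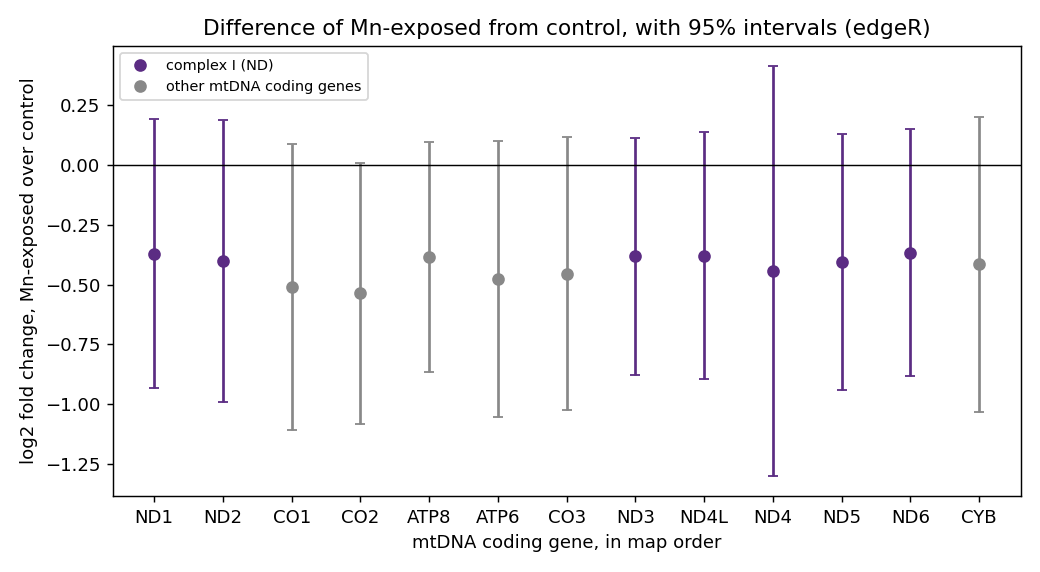
Log2 fold change of Mn-exposed over control striatum for the 13 mtDNA coding genes in map order, from edgeR over 3 libraries per group, with 95% intervals as bars (purple, the 7 ND subunits; grey, the other 6). All estimates lie between -0.54 and -0.37 and all intervals include 0, with the widest at ND4.

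A large part of the difference came from 1 library. Mn-exposed 14 was lowest in all 7 members, at 41.7% to 57.6% below the control mean in CPM. Mn-exposed 17 lay 13.7% to 24.8% below the control mean, and below every control in 5 of the 7. Mn-exposed 13 lay 3.24% to 13.1% below the control mean and above at least 1 control in 6 of the 7. Control 1 was the highest library for 6 members, with control 2 highest for ND4. In TMM-scaled CPM the groups did not overlap in 1 of 7 members, ND5, and were lower without overlap in 5.48% of all genes tested. When Mn-exposed 14 was left out, the 7 members had a median log2 fold change of -0.20 (-0.22 to -0.16), against -0.38 with all 6 libraries, and without Mn-exposed 13 it was -0.55 (-0.64 to -0.48). Single members followed: without Mn-exposed 14, ND4 moved from -0.44 to -0.16 and ND1 from -0.37 to -0.18. ND4 also depended on the controls, at -0.69 without control 4 and -0.23 without control 2. The adjusted p stayed above 0.05 in each of these edgeR fits.

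**Figure D3:**
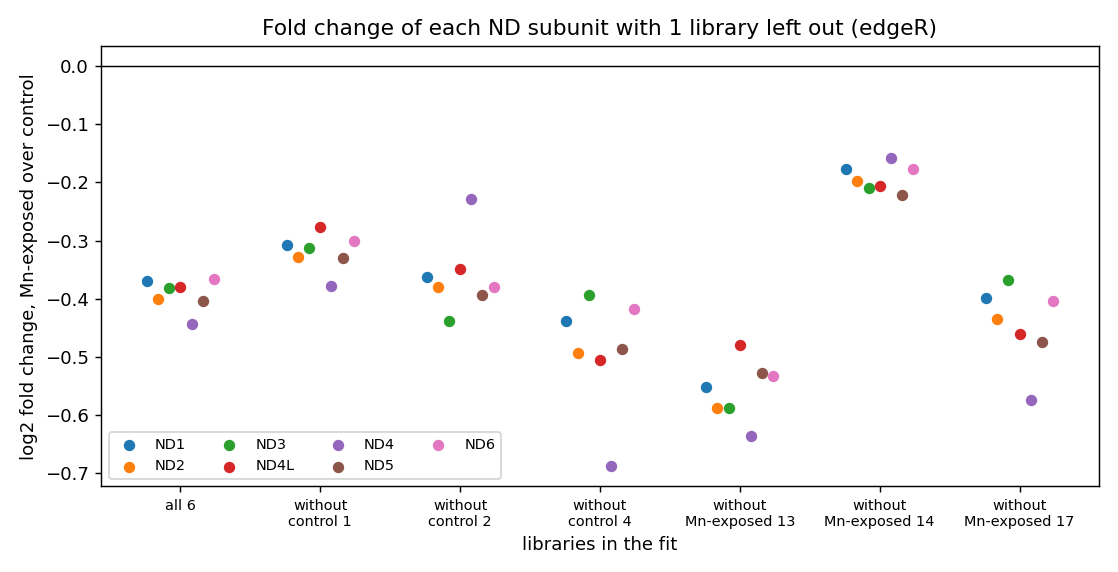
Log2 fold change of Mn-exposed over control for each of the 7 ND subunits (colours) in the edgeR fit of all 6 libraries and in fits with 1 library left out. All points are below 0. They are closest to 0 without Mn-exposed 14, from -0.22 to -0.16, and ND4 moves the most.

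The scaling of libraries moved with the groups. TMM factors were 0.956 to 0.977 in controls and 1.01 to 1.06 in Mn-exposed libraries. With library size alone the median of all genes moved from 0.02 to 0.12, and the 7 members ran from -0.34 to -0.26, so they remained negative both in themselves and relative to all genes. With library sizes and TMM computed outside the mitochondrial chromosome the median of the members was -0.38.

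As a part of all counts, the summed ND transcripts had a lower mean in Mn-exposed libraries, and the groups overlapped. They made up 4.20%, 3.98% and 3.36% of the controls' counts and 3.73%, 2.31% and 3.43% of those of the Mn-exposed libraries. Mn-exposed 13 and 17 lay above control 4. The means were 3.85% ± 0.435 in controls and 3.16% ± 0.751 in Mn-exposed libraries (SD, n = 3 each). They differed by -0.70 percentage points (exact permutation p = 0.3, two-sided). The smallest p that 3 libraries against 3 allow is 0.1. Without Mn-exposed 14 the difference was -0.27 points. Counting error was small: for Mn-exposed 14 the 95% exact Clopper-Pearson interval, for counting error only, was 2.299% to 2.311%.

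Within the coding transcripts of mtDNA, the mean ND part was slightly higher in Mn-exposed libraries, and the groups overlapped. The 7 took 25.4%, 28.6% and 24.3% of the counts of the 13 coding genes in the controls and 27.2%, 26.7% and 27.7% in the Mn-exposed libraries. The Mn-exposed values all lay inside the range of the controls. The means were 26.1% ± 2.26 and 27.2% ± 0.491 (SD, n = 3 each), a difference of 1.12 points (two-sided exact permutation p = 0.5). Within the pairs of ID numbers 1, 2 and 3 the difference was 1.78, -1.88 and 3.45 points, so its sign was not the same in all. Its size rested on the controls: it was 2.38 points without control 2 and 0.21 points without control 4. Mn-exposed 14, which was lowest in its level of the 7, was thus not apart in the balance of ND against the rest, and the 6 other coding genes were also lowest in it.

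**Figure D4:**
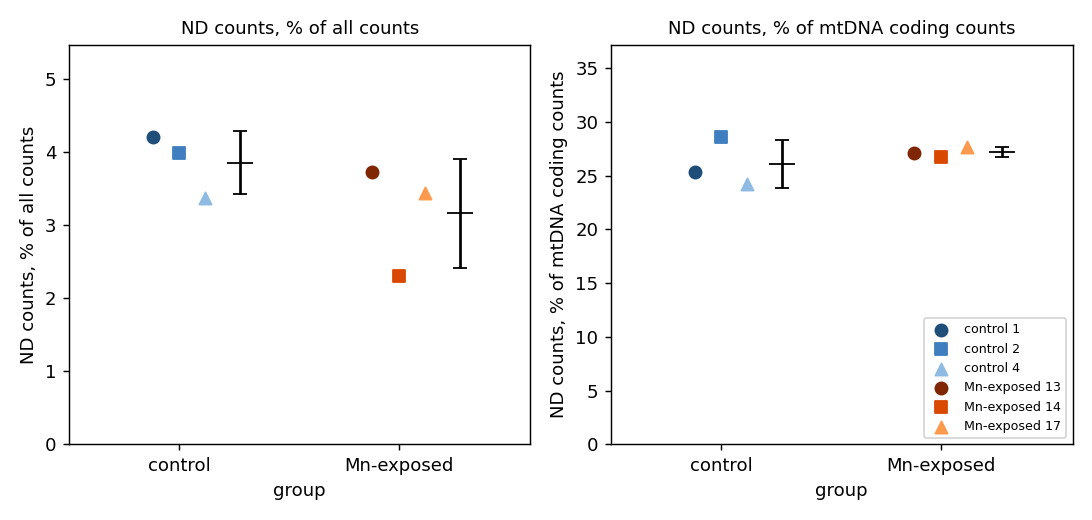
Summed counts of the 7 ND subunits as a percent of all counts (left) and of the counts of the 13 mtDNA coding genes (right), with 1 point per library and the mean and SD of each group (n = 3) in black. On the left Mn-exposed 14 is lowest at 2.31%, and on the right the 3 Mn-exposed libraries lie between 26.7% and 27.7%, inside the control range.

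The ND genes held fewer counts per base than the 6 other mtDNA coding genes, which encode subunits of cytochrome c oxidase (CO1, CO2, CO3) and ATP synthase (ATP6, ATP8) and cytochrome b (CYB). Their summed counts per base were 0.269, 0.317 and 0.254 times those of the others in the controls and 0.295, 0.289 and 0.304 times in the Mn-exposed libraries. The ratio was below 1 in all 6 libraries (exact sign-flip permutation p = 0.03125, the smallest possible, in a test chosen after the levels were seen). It was 0.280 ± 0.0332 in controls and 0.296 ± 0.00735 in Mn-exposed libraries (SD, n = 3 each, exact permutation p = 0.5). By mean level per base the 7 took the last 7 places among the 13. Of 252 comparisons of a member with another gene in a library, the member was higher in 2, which were ND1 and ND2 against CYB in control 2.

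The 6 other genes had log2 fold changes from -0.54 (CO2) to -0.38 (ATP8), with a median of -0.47. In TMM-scaled CPM, 5 of the 6 had groups that did not overlap, against 1 of the 7 ND genes and, counting lower ones, 5.48% of all genes tested. That count does not test the difference between the lists. The ratio of summed ND to summed other counts, which bears on it, differed by 0.09 on the log2 scale with an exact permutation p of 0.5 (n = 3 each).

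The balance among the 7 was then compared between groups, as the log2 level of each member relative to the geometric mean of the other 6. ND4L had the largest positive difference, 0.03 in Mn-exposed over control, and ND4 the largest negative one, -0.05. The exact permutation p was between 0.4 and 1 for the 7 members, and 1 for each after adjustment over 7. In no member did the groups separate, and in 0 of the 21 pairs of members did the ratio separate them. These tests could not have passed 0.05 with 3 libraries against 3, so they do not show that the members moved alike.

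The spread of these relative levels, taken over the libraries of both groups together, differed between members. Against this reference ND2 was the most constant, with an SD of 0.029 over the 6 libraries on the log2 scale, followed by ND5 and ND1 with 0.056 each. ND6 had an SD of 0.079, ND4L 0.087 and ND3 0.163. ND4 had 0.323, the widest of the 7. Its relative level was -2.24, -1.87 and -2.73 in the controls and -2.23, -2.64 and -2.13 in the Mn-exposed libraries. Control 4 and Mn-exposed 14 were the low libraries, and control 2 the high one. Since ND4 is in the reference of every other member, the ranking of ND2 and ND1 depends on it. The log2 ratio per base to ND3, ND5 and ND6 had an SD of 0.096, 0.057 and 0.030 for ND1. For ND2 it was 0.124, 0.060 and 0.061. Against ND4L and ND4 the SD was 0.105 and 0.320 for ND1, and lower for ND2, at 0.096 and 0.288.

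**Figure D5:**
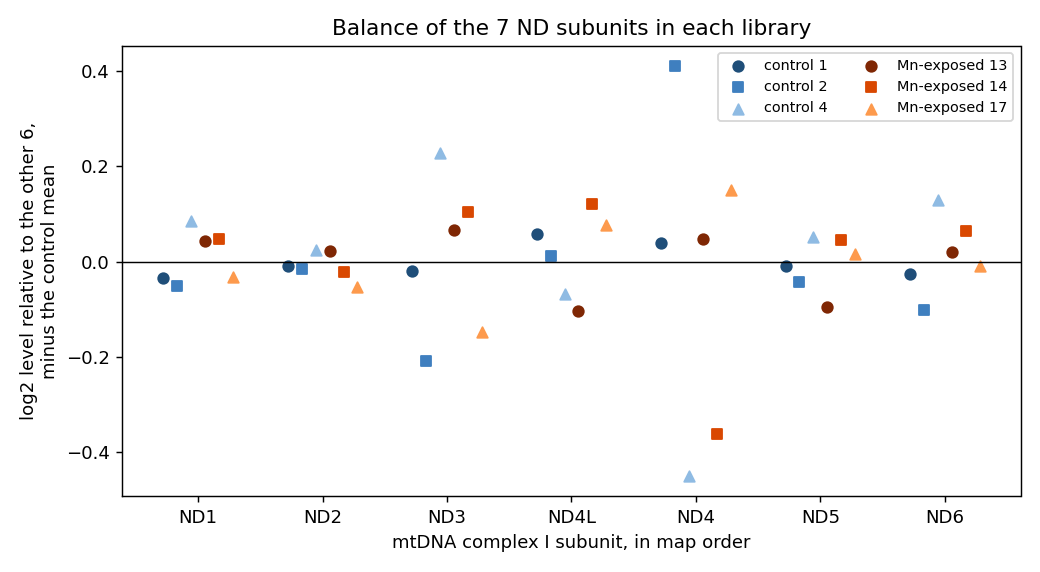
Log2 level of each ND subunit relative to the geometric mean of the other 6, minus its control mean, with 1 point per library (3 control, 3 Mn-exposed). ND2 stays closest to 0, and ND4 spreads the most, with control 2 high and control 4 and Mn-exposed 14 low.

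Parts were also taken of all counts on the mitochondrial chromosome. Its annotated features were the 13 coding genes and 22 short ones of 60 to 75 bases. Measured so, ND2 was the largest member, at 8.32% ± 0.808 in controls and 8.59% ± 0.249 in Mn-exposed libraries (SD, n = 3 each). ND1 followed at 7.62% ± 0.567 and 8.05% ± 0.114, and ND5, the longest, at 5.84% ± 0.476 and 6.06% ± 0.296. ND6 took 1.81% ± 0.086 and 1.92% ± 0.0187, and ND4L 1.17% ± 0.151 and 1.25% ± 0.0882. ND3 took 0.663% ± 0.023 and 0.697% ± 0.0363, and ND4, although the second in length, 0.609% ± 0.215 and 0.598% ± 0.109. In all 7 the groups overlapped, and two-sided exact permutation p-values lay between 0.2 and 1 before adjustment.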

How the data were processed

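Poly(A)-selected RNA of 6 rat striatum libraries, 3 control and 3 Mn-exposed, was analysed from the deposited counts, whole and unnormalised reads for each Ensembl gene, per the file headers. Alignment was to Rnor_6.0, with STAR 2.5.2b, bcl2fastq 2.17 and DESeq2 (no version) among the named tools, per the submitters' processing notes. The counting tool, strand setting included, is not given in the sources used here. The series table differed from the single files in 0 cells. Of 32552 gene IDs, 0 matched a RefSeq table on GRCr8, so the lists of nuclear complex I genes, complex I assembly factors, mtDNA expression genes and cell type markers were not analysed here, and no sequence of the members is printed.

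All genes kept by filterByExpr (15252) were fitted with edgeR 4.0.16 in R 4.3.3 (TMM, quasi-likelihood F-test, robust, group only), with Benjamini-Hochberg adjustment over all of them and a threshold of 0.05. Intervals of 95% used the standard error and the degrees of freedom of that fit. CPM were TMM-scaled. Exact permutation tests, two-sided, served for shares and ratios, and exact sign-flip tests for members within libraries (scipy 1.17.1 for binomial intervals). Alternatives were other scalings and filters, DESeq2 1.42.0, limma-voom (limma 3.58.1), other denominators and lengths, the ID number as a block and each library left out. The scripts were tested on simulated data. The members, lists and tests were chosen with earlier results of these data known. All 7 members are named, with the 6 other mtDNA coding genes and the 2 genes outside mtDNA with the most similar profile.

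The labels number the IDs 1 to 3 in both groups. The numbers were treated as pairs in an alternative fit, whatever their correlation. Over genes, same-numbered libraries deviated from their group means with correlations of 0.417, 0.109 and 0.227. Correlations between differently numbered libraries are not given here for comparison. No label ties a number to a litter or day, and the correlations come from these same data.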

Additional observations from a re-analysis of the deposited data

How the results depend on the processing

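The count of members past edgeR's test stayed at 0 in all 14 alternatives, DESeq2, limma-voom and the fits with 1 library left out included, with adjusted p of at least 0.257. All 98 fold changes of a member under an alternative were negative, from -0.69 (ND4 without control 4) to -0.16 (ND4 without Mn-exposed 14). The median of -0.38 was -0.28 with library size alone and -0.55 to -0.20 with 1 library left out. With the ID number as a replicate block it was -0.41, with 0 members called and 1, ND3, at an unadjusted p under 0.05 (0.0352, edgeR adjusted p = 0.331), where 13.9% of all genes were. The difference in the share of all counts kept its sign, from -0.98 to -0.27 points with 1 library left out and -0.95 to -0.65 otherwise. Within ID numbers it was -0.47, -1.68 and 0.07 points. That in the share of mtDNA coding counts was 0.21 to 2.38 points with 1 library left out and 1.01 to 1.12 otherwise. The block changed no call.

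Relative levels within the 7 differed by so little that their signs turned. Against the summed 13 coding genes and the mean of the 6 others, the difference was 0.049 and 0.050 in ND2, 0.018 and 0.019 in ND4, and 0.055 and 0.056 in ND5, and without ND4 in the reference, a choice added after the data were seen, it was -0.0011 in ND3. With 1 library left out it ran from -0.0063 to 0.062 in ND1, -0.038 to -0.00022 in ND2, -0.097 to 0.12 in ND3, -0.014 to 0.099 in ND4L, -0.28 to 0.15 in ND4, -0.040 to 0.031 in ND5 and -0.025 to 0.089 in ND6. Of the 20 pairs that differed per base, 19 did without shared bases, and 0 with 1 library left out, where 5 libraries cannot pass. Members held at least 10345 counts. Even so, ND4L stood per base at 1.002 times ND6 in control 4, too near 1 for counts to settle the direction there.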

Other observations

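The short features next to the ND genes, of the size of transfer RNA genes, held few counts beside their neighbours. The 3 between ND4 and ND5, from 11538 to 11735, had 0 to 4 counts each in a library, while ND4 had at least 10345. The feature just before ND1 held 530, 895 and 649 counts in the controls (1, 2, 4) and 604, 336 and 601 in the Mn-exposed libraries (13, 14, 17), and the one just after it 7 to 18 in any library. The feature just before ND2 held 465, 509 and 448 counts in the controls and 406, 306 and 338 in the Mn-exposed libraries. The counting rule for such short features is not given in the sources used here.

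Among 9682 genes outside mtDNA with a mean of at least 10 CPM, the profile most like that of the summed ND counts was that of ENSRNOG00000020594, a plus-strand gene of chromosome 10 (15672382 to 15685284), followed by ENSRNOG00000009139, a minus-strand gene of chromosome 3 (10221395 to 10269693). The Pearson r of log2 CPM over the 6 libraries was 0.984 and 0.982. The first stood at 17.4, 14.2 and 12.8 CPM in the controls and 13.0, 7.79 and 12.1 in the Mn-exposed libraries. With 6 libraries and so many genes high values arise readily: the 99th percentile of r was 0.913. The 6 other mtDNA coding genes had r from 0.900 (CO2) to 0.974 (ATP8) with the summed ND counts, and each ND gene had 0.894 (ND4) to 0.998 (ND2) with the sum of the other 6. These values describe the same libraries and carry no test.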
